A study of Mus musculus with 12 samples.

Results

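The matrix metalloproteinases (MMPs) and the tissue inhibitors of metalloproteinases (TIMPs) were followed in RNA of cerebral vessels during acute systemic inflammation. The group holds 10 genes chosen by name: 6 MMPs (Mmp2, Mmp3, Mmp8, Mmp9, Mmp14, and Mmp15) and all 4 TIMPs (Timp1, Timp2, Timp3, and Timp4). They are 10 of the 54119 genes with summed estimates, and all 10 were among the 19150 genes past a filter on low counts. Wild type C57BL6 mice, 2 to 3 months old, received an intraperitoneal injection of PBS or of lipopolysaccharide (LPS, a bacterial membrane component) at 10 mg/kg. Vessels were isolated from the forebrain after perfusion and removal of the meninges. The 4 groups were PBS and LPS for 15 min, 30 min, or 4 h, with 3 libraries in each group. Every library pooled the vessels of 1 male and 1 female mouse, so a library is the replicate and sexes cannot be compared.

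Depth was 18.3 to 25.9 M fragments per library. Levels of one gene across libraries are given as CPM, read counts relative to library size, which was scaled by TMM, a method that centres most genes. Levels of different genes are compared in TPM, a share of all transcripts that corrects for transcript length. A gene was called where edgeR's quasi-likelihood test against a change of at most 1.5-fold passed 0.05 after Benjamini-Hochberg adjustment over the 19150 genes tested. Scaling by library size alone moved the median log2 fold change of all genes from -0.01 to -0.71 at 4 h and from -0.01 to -0.17 at 30 min, so every 4 h change below is relative to most other genes. With that scaling, 1907 of 10462 calls at 4 h were higher than PBS, against 3636 of 6273 with TMM. At 30 min the same change of scaling gave 541 of 881 calls higher, against 724 of 877. Markers of the labelled tissue were present: the sum of 8 endothelial genes was 9418 to 9700 CPM in PBS and the sum of 6 pericyte genes 3516 to 3591 CPM. The preparation also held choroid plexus transcripts, since Ttr, the thyroxine carrier made there, was at 10060 ± 215 CPM in PBS (SD, n = 3).

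MMPs are zinc endopeptidases that cut collagens, laminins, and other matrix proteins, and they are made as inactive precursors. TIMPs bind the active site of MMPs, and Timp3 also blocks several ADAM proteases. In brain vessels the family is known for remodelling the basement membrane and for cutting tight junction proteins when the blood-brain barrier opens. Mmp14 and Mmp15 sit in the cell membrane, whereas the other members are secreted. These are facts of textbook kind and not results of these libraries.

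Mmp3 lies on chromosome 9 at 7445822 to 7455975 of GRCm38 on the plus strand, and Mmp8 lies near it at 7558456 to 7568485. Timp1 lies on chromosome X at 20870166 to 20874735 within the synapsin gene Syn1, which runs on the other strand. These 3 genes had the largest fold changes of the group at 4 h, and the 250 bases before the RefSeq start of each (GRCm38.p6, written in the direction of the gene) are shown for that reason. Capitals mark matches, on either strand, to an AP-1 site, a TATA box, or an ETS site of the PEA3 kind.
Mmp3, chr9:7445572-7445821, plus strand: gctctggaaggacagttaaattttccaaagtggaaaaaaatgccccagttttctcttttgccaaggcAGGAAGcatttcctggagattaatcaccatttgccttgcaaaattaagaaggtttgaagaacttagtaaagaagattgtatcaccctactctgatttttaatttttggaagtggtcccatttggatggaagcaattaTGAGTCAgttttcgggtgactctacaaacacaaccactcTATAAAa
Mmp8, chr9:7558179-7558428, plus strand: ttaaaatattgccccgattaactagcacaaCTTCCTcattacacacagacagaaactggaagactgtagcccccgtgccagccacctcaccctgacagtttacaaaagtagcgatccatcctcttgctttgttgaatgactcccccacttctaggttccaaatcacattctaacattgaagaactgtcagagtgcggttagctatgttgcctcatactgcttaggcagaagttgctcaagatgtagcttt
Timp1, chrX:20869916-20870165, plus strand: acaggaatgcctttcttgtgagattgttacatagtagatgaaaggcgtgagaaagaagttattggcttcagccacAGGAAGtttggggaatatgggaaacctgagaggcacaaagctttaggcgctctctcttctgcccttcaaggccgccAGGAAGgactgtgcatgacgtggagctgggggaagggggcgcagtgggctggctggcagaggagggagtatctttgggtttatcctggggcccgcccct

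The Mmp3 window held 1 AP-1 site (searched as TGANTCA) at 46 to 40 bases before the start. AP-1 is the factor formed by Fos and Jun proteins. The same letters occur in 6.75% of the 32851 promoter windows of equal length. Mmp3 also held a TATA box (TATAAA, in 12.4% of windows) at 7 to 2 bases before the start and an ETS site (AGGAAG, in 29.5%) at 183 to 178. Timp1 held 2 ETS sites, at 175 to 170 and at 99 to 94 bases before the start. Mmp8 held 1 ETS site on the other strand, at 220 to 215. An NF-kB consensus (in 3.9% of windows) and a STAT site (TTCNNNGAA, in 7.02%) were also searched and had no match in the 8 members with a RefSeq entry in the table. Mmp14, Timp3, and Timp4 each held 1 ETS site, and Mmp15 and Timp2 held none of the 5 motifs. Matches describe letters only, and no binding was measured.

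In PBS vessels the inhibitors were the more abundant side of the family. Timp3, the TIMP that binds to the extracellular matrix, stood first at 391 ± 3.23 TPM (SD, n = 3), followed by Timp2 at 101 ± 1.06 TPM. The membrane-type Mmp14 (23.8 ± 0.428 TPM) and Mmp15 (21.2 ± 1.60 TPM) came next, and Mmp2, the gelatinase A that Mmp14 and Timp2 together activate, was at 11.1 ± 1.79 TPM. Timp4 (3.93 ± 1.18 TPM) and Timp1 (3.15 ± 1.08 TPM) overlapped in their ranges. Gelatinase B, Mmp9, was at 0.894 ± 0.370 TPM. Mmp8 and Mmp3 closed the order with 9 and 5 counts over all 3 libraries, and their ranges overlapped.

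**Figure D1:**
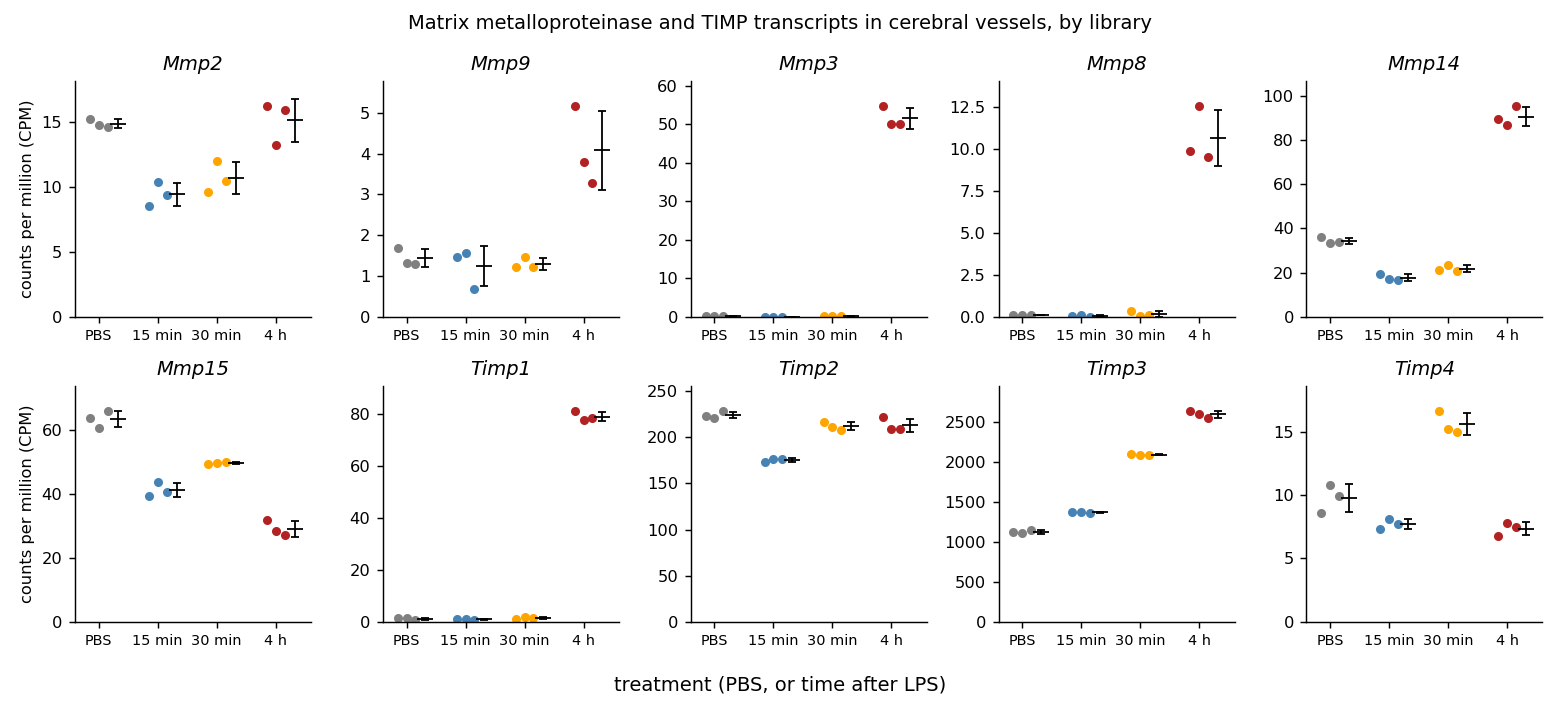
CPM (y axis, from 0, own scale for each gene) of the 10 genes in each library of the 4 groups (x axis); points are libraries, and the black mark with bars is the group mean ± SD. Mmp3, Mmp8, and Timp1 are near 0 until LPS 4 h, Timp3 stands higher at each later time (with library size alone its step from 30 min to 4 h is -0.23 on the log2 scale), and Mmp14 dips to 16.4 to 19.4 CPM at 15 min before it reaches 87.0 to 95.4 CPM at 4 h.

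At LPS 15 min, 1 of the 10 members was called, against 4.18% of all genes tested (3.31% higher and 0.872% lower). Mmp14 fell: it was at 36.0, 33.3, and 34.0 CPM in the PBS libraries and at 19.4, 17.1, and 16.4 CPM in the LPS 15 min libraries. All 3 LPS libraries lay below all PBS libraries, with a log2 fold change of -0.96 (SE 0.0675, edgeR adjusted p = 5.51e-05). Mmp15 and Mmp2 had changes of -0.62 (SE 0.0534, edgeR adjusted p = 0.853) and -0.66 (SE 0.109, edgeR adjusted p = 0.861), near the limit of 1.5-fold and not called. The groups did not overlap for 8 of the 10 members, against 49.3% of all genes. The median log2 fold change of the members was -0.52, and that of all genes was about 0 (-0.0021). This count and median hold Mmp3 (0 counts against 5 in PBS, -3.59, SE 1.29) and Mmp8 (3 counts against 9, -1.40, SE 0.867). Both genes passed the filter through the 4 h group alone, and neither was called at 15 min. The sum of 6 fibroblast marker genes was also lower, at 356 to 375 CPM against 505 to 536 CPM in PBS, with the collagen gene Col1a1 at 46.9 ± 1.85 against 90.2 ± 5.17 CPM. The sum of 5 smooth muscle markers was 1588 to 1613 CPM against 2470 to 2514 CPM, with Acta2, Cnn1, and Myh11 called lower. The sum of 6 astrocyte markers was 554 to 599 CPM against 717 to 739 CPM, with Gfap called lower. The other 5 astrocyte markers were not called, and the median log2 fold change of the 6 was -0.18. Other marker sums went either way. The endothelial sum was 9730 to 9774 CPM against 9418 to 9700 CPM in PBS, and the pericyte sum 3735 to 3756 against 3516 to 3591 CPM. The neuron sum was 286 to 296 against 215 to 223 CPM, and the microglia sum 134 to 138 against 146 to 150 CPM. The part of these cell types in the Mmp14, Mmp15, and Mmp2 values was not tested. In bulk vessels, fewer cells of a type and less RNA per cell cannot be told apart.

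At LPS 30 min, 1 member was called, against 4.58% of all genes tested (3.78% higher and 0.799% lower). The groups did not overlap for 6 members, against 46.7% of all genes. Timp3 rose from 1118, 1106, and 1152 CPM in PBS to 2094, 2082, and 2087 CPM. The 2 groups were far apart relative to their spread, with a log2 fold change of 0.89 (SE 0.0197, edgeR adjusted p = 1.58e-12), and at 15 min it had been 0.28 (SE 0.0196), which was not called. Timp3 shares 1733 exonic bases with Syn3 on the opposite strand of chromosome 10 (86300372 to 86349506). The library kit does not mark strand. Syn3 was at 3.82 ± 0.284 CPM in PBS and 6.03 ± 1.76 CPM at 30 min, and the part of its reads in the Timp3 value was not tested. The sum of 3 choroid plexus markers was 13528 to 13871 CPM at 30 min and 10260 to 10689 CPM in PBS, where Ttr alone made up most of it. The part of choroid plexus in the Timp3 value was not tested. Mmp14 remained at a log2 fold change of -0.66 (SE 0.0670, edgeR adjusted p = 0.550), which was called with library size alone (-0.83, edgeR adjusted p = 0.00548).

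Between LPS 15 min and LPS 30 min, 2 members were called higher at the later time, against 4.65% of all genes in either direction (2.69% higher and 1.96% lower). The 15 and 30 min groups did not overlap for 7 members, against 47.6% of all genes. Both counts hold Mmp3, which passed the filter on low counts through the 4 h group alone. Timp4 was at 7.36, 8.11, and 7.70 CPM at 15 min and at 16.6, 15.2, and 15.0 CPM at 30 min. The log2 difference was 1.02 (SE 0.110, edgeR adjusted p = 0.00249). Timp4 shares 90 exonic bases with Syn2 on the opposite strand. Syn2 was at 37.3 ± 2.00 CPM at 15 min and 26.8 ± 2.01 CPM at 30 min, and the part of its reads in the Timp4 value was not tested. Timp4 has a long transcript of 5496 bases and a short one of 945 bases, and the short one made up 25.5% of its TPM in PBS (0 to 38.4%), 58.2% at 15 min (47.0 to 68.8%), 57.3% at 30 min (55.9 to 59.8%), and 32.8% at 4 h (0 to 57.1%). It was estimated at 0 in PBS replicate 1 and LPS 4 h replicate 1, without which the means were 38.2% and 49.1%, and without LPS 4 h replicate 3 the 4 h mean was 20.6%. An offset for transcript length ended the call (0.97, edgeR adjusted p = 0.354). Mmp3 was at 0, 0, and 0 counts at 15 min and at 1, 6, and 1 counts at 30 min, which is at least 3.09-fold higher against a floor of 3 counts over the group. Its call (edgeR adjusted p = 0.0377) rested on few reads and was lost without LPS 30 min replicate 2 (adjusted p = 0.529), without any one LPS 15 min library (0.0982 to 0.125), and without PBS replicate 2 (0.0503).

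At LPS 4 h, 7 of the 10 members were called, 6 higher and 1 lower, against 32.8% of all genes tested (19.0% higher and 13.8% lower). Mmp3, Mmp8, Timp1, Mmp9, Mmp14, and Timp3 rose, and Mmp15 fell. Mmp2, Timp2, and Timp4 did not pass the test. Mmp3 and Mmp8 passed the filter on low counts through the 4 h group alone and so had to differ, and the count and median over the members hold both. Of the other 8 members, 4 rose and 1 fell. The median log2 fold change of the members was 1.30, and that of all genes was -0.01. The groups did not overlap for 8 members, against 70.9% of all genes.

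**Figure D2:**
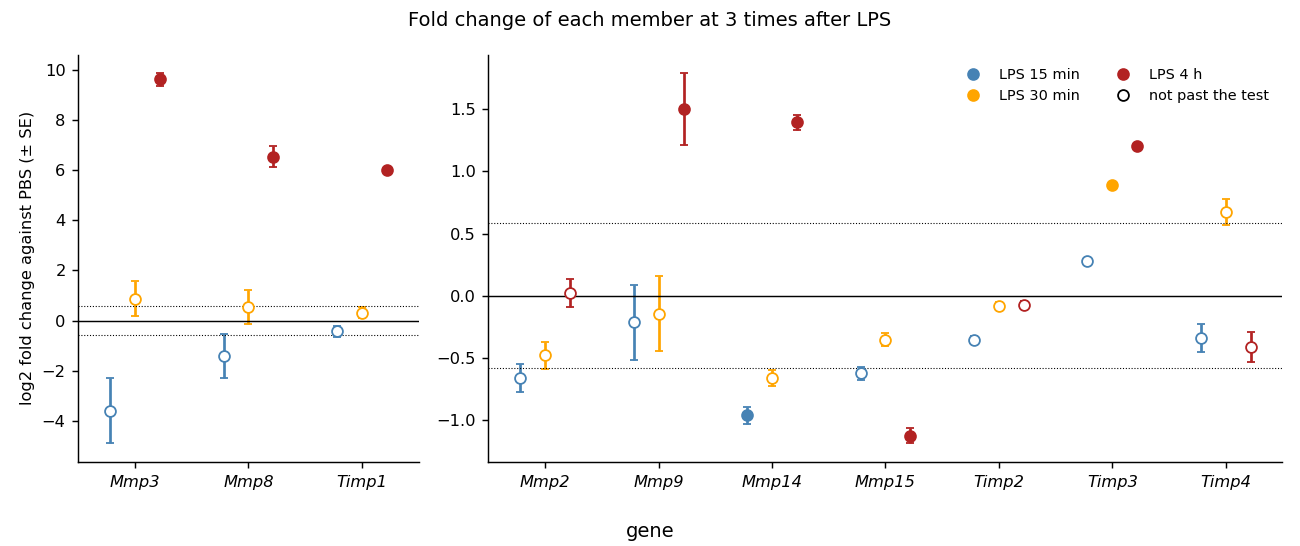
Log2 fold change against PBS (y axis, ± SE from the edgeR fit) of each member (x axis) at the 3 LPS times; the left panel has a wider scale, dotted lines mark 1.5-fold, and open points did not pass the test. Mmp3 reaches 9.61 at 4 h, Mmp14 is below 0 at 15 min and at 1.40 at 4 h, and Mmp15 is at -1.13 at 4 h.

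Mmp3 encodes stromelysin-1, which cuts laminin, proteoglycans, and the precursors of other MMPs. It had 1, 2, and 2 counts in the PBS libraries and 710, 752, and 732 counts at LPS 4 h. In CPM this was 0.0604 ± 0.0204 against 51.6 ± 2.71 (SD, n = 3). The log2 fold change was 9.61 (SE 0.248, edgeR adjusted p = 2.44e-18). The ratio of the scaled summed counts was 850, with a 95% exact counting interval of 363 to 2619 that covers counting error only. Mmp3 thus went from the last place among the members to 28.4 ± 1.88 TPM, below Mmp14 (32.5 ± 1.65 TPM) with no overlap of their ranges.

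Mmp8, the collagenase stored in neutrophil granules, had 3 counts in every PBS library and 128, 188, and 139 counts at 4 h. The log2 fold change was 6.54 (SE 0.416, edgeR adjusted p = 6.14e-12), and the ratio of scaled summed counts was 97.9, with a 95% exact counting interval of 51.1 to 215. Mmp9 was at 1.69, 1.32, and 1.30 CPM in PBS and at 5.16, 3.80, and 3.28 CPM at 4 h. These groups did not overlap, although the 4 h libraries differed by more than the PBS libraries did. The log2 fold change of Mmp9 was 1.5 (SE 0.289, edgeR adjusted p = 0.00184). Its call was lost with library size alone (0.80, edgeR adjusted p = 0.148), with the length offset (1.25, edgeR adjusted p = 0.0766), and with limma on the normalized gene table (adjusted p = 0.215 to 0.338). It rested on 118 counts in PBS and 172 at 4 h.

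Neutrophil markers moved with Mmp8 and Mmp9. The sum of 11 such genes was 7.42 to 9.54 CPM in PBS, 5.56 to 8.04 CPM at 15 min, 9.16 to 11.1 CPM at 30 min, and 244 to 247 CPM at 4 h. S100a8 and S100a9, which encode the calprotectin subunits, were at 57.3 ± 1.05 and 91.8 ± 3.06 CPM at 4 h. Of the 8 markers that passed the filter, 3 (Camp, Ngp, and Retnlg) did so through the 4 h group alone and so had to differ, and the other 5 were called higher at 4 h. Of the other 3, Ly6g, a surface protein that defines mouse neutrophils, had 13 counts over the 4 h group, and the granule enzymes Elane and Mpo had 2 and 4. Mmp25, an MMP known from neutrophils, was not called (-0.54, edgeR adjusted p = 0.631). The part of neutrophils in the Mmp8 and Mmp9 values was not tested.

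**Figure D3:**
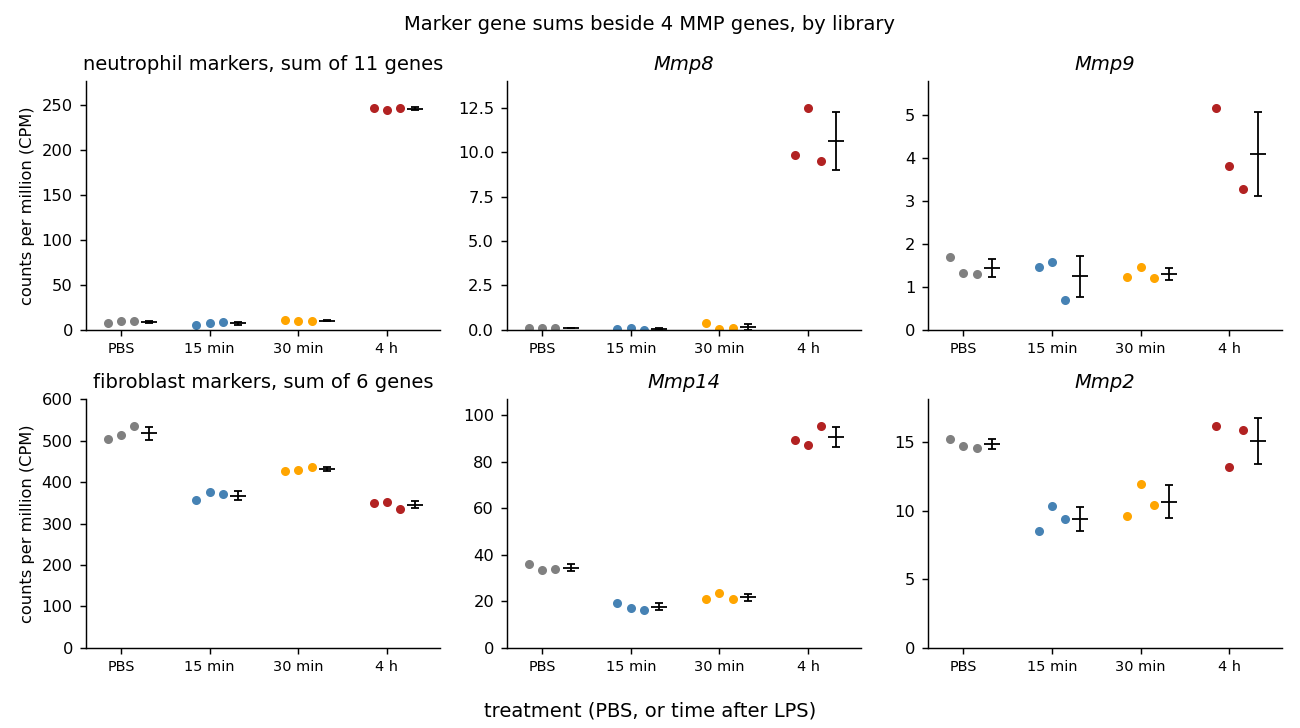
CPM (y axes, from 0) in each library of the 4 groups (x axes) for the sum of 11 neutrophil markers beside Mmp8 and Mmp9 (top) and the sum of 6 fibroblast markers beside Mmp14 and Mmp2 (bottom), with group mean ± SD. The neutrophil sum, Mmp8, and Mmp9 are high at 4 h alone, and at 4 h the fibroblast sum (336 to 351 CPM) is below PBS whereas Mmp14 is above it.

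The membrane-type members went in opposite directions at 4 h. Mmp14, which cuts collagen at the cell surface and activates Mmp2, reached 89.5, 87.0, and 95.4 CPM, against 33.3 to 36.0 CPM in PBS, with a log2 fold change of 1.40 (SE 0.0612, edgeR adjusted p = 4.15e-12). Mmp15, its close relative, went from 63.8, 60.9, and 65.9 CPM in PBS to 31.9, 28.3, and 27.1 CPM, a change of -1.13 (SE 0.0603, edgeR adjusted p = 4.92e-09). In TPM the pair stood at 23.8 (Mmp14) and 21.2 (Mmp15) in PBS, and at 32.5 and 4.97 at 4 h. Both genes lie on plus strands, Mmp14 on chromosome 14 (54431612 to 54445364) and Mmp15 on chromosome 8 (95352268 to 95375080).

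Mmp2 was at 15.2, 14.7, and 14.6 CPM in PBS and 16.2, 13.2, and 15.9 CPM at 4 h, and these ranges overlapped. Its log2 fold change of 0.02 (SE 0.111, edgeR adjusted p = 1) took the opposite sign with library size alone (-0.68). The estimated makeup by transcript differed. A retained-intron transcript of 1078 bases (Mmp2-204) was estimated at 7.13% of Mmp2 TPM in PBS (0 to 14.6%, and 3.38% without PBS replicate 1) and 38.3% at 4 h (33.8 to 46.5%). The coding transcript Mmp2-201 was at 7.08 ± 0.819 TPM in PBS and 3.10 ± 0.249 TPM at 4 h. TPM are not scaled by TMM, so the size of this difference depends on the scaling. With library size alone the median log2 fold change of all genes at 4 h was -0.71. The shares and levels of transcripts are Salmon estimates from short reads and were not tested.

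Among the inhibitors, Timp1 had the largest change. It binds most secreted MMPs and inhibits the membrane types weakly. Timp1 was at 1.42, 1.48, and 0.763 CPM in PBS, and at 81.1, 77.8, and 78.5 CPM at 4 h, with a log2 fold change of 6.0 (SE 0.132, edgeR adjusted p = 6.02e-21). At 15 and 30 min the values were 0.921 ± 0.116 and 1.54 ± 0.302 CPM, and neither was called. Its host gene Syn1, with which it shares 0 exonic bases, was lower at 4 h (-0.75, SE 0.0713, edgeR adjusted p = 0.0116). Its 2 main transcripts, of 833 and 883 bases, were about equal at 4 h (49.9 and 50.1% of Timp1 TPM).

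Timp3 reached 2627, 2601, and 2547 CPM at 4 h, a log2 fold change of 1.2 (SE 0.0198, edgeR adjusted p = 1.86e-19). With library size alone the change was 0.50 and was not called. Syn3 also rose, from 3.82 to 9.10 CPM (1.25, SE 0.227, edgeR adjusted p = 0.00302). The choroid plexus sum was 17251 to 18141 CPM at 4 h, and its part in the Timp3 value was not tested. Timp2, which both inhibits MMPs and takes part in activation of Mmp2, was at 224 ± 3.42 CPM in PBS and 213 ± 7.40 CPM at 4 h. Its log2 fold change of -0.08 (SE 0.0295, edgeR adjusted p = 1) became -0.78 with library size alone and was then called lower, beside a median of -0.71 over all genes. Timp4 was at 7.34 ± 0.512 CPM, with a change of -0.41 (SE 0.120, edgeR adjusted p = 1). It too was called lower with library size alone (-1.11, edgeR adjusted p = 5.48e-05).

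From LPS 30 min to LPS 4 h, 5 members rose and 2 fell, against 28.6% of all genes called in either direction (16.9% higher and 11.8% lower). The groups did not overlap for 9 members, against 67.5% of all genes. Mmp3 and Mmp8 passed the filter on low counts through the 4 h group alone and so had to differ, and these counts hold both. The risers were Mmp3 (log2 difference 8.72), Mmp8 (6.01), Timp1 (5.68), Mmp14 (2.06), and Mmp9 (1.65). Timp4 fell by 1.08 and Mmp15 by 0.78 on the log2 scale. Timp3, by contrast, had 0.31 (SE 0.0195, edgeR adjusted p = 1) over this interval, and -0.23 with library size alone, and its difference between 15 and 30 min was 0.61 (SE 0.0196, edgeR adjusted p = 0.376). The call for Mmp15 was lost with DESeq2 (adjusted p = 0.0558), and that for Mmp9 with the length offset (edgeR adjusted p = 0.0648) and with limma (adjusted p = 0.191 to 0.307).

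Ratios within a library do not depend on the scaling between libraries, so the members were also described as 2 transcript pools in TPM. The summed levels, unlike the ratios and shares, are not free of that scaling, since TPM are not scaled by TMM. In CPM the sum of all 10 members was 1450 to 1507 in PBS, 2394 to 2410 at 30 min, and 3043 to 3144 at 4 h. The summed TIMP level was 498 ± 2.96 TPM in PBS, 555 ± 6.87 at 15 min, 677 ± 6.89 at 30 min, and 650 ± 19.6 at 4 h (SD, n = 3). The summed level of the 6 MMPs was 57.1 ± 2.44, 33.2 ± 1.77, 32.5 ± 3.56, and 79.0 ± 3.41 TPM. The TIMP to MMP ratio was 8.73 ± 0.336 in PBS, 16.8 ± 0.727 at 15 min, 21.0 ± 2.44 at 30 min, and 8.24 ± 0.311 at 4 h. At 15 and 30 min all libraries lay above all PBS libraries, whereas the 4 h and PBS ranges overlapped (7.93 to 8.55 and 8.37 to 9.04). The order of 4 h and PBS depended on the definition. With estimated counts the ratio was 14.4 at 4 h (14.1 to 14.9) and 11.9 in PBS (11.6 to 12.1), and with all MMP genes in the denominator it was 5.15 (5.07 to 5.24) and 4.17 (4.13 to 4.22), so that 4 h lay above PBS with no overlap in both. With 3 libraries against 3, an exact permutation test cannot give a two-sided p below 0.1, so no test is given.

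The makeup of the pools at 4 h differed from that in PBS. Timp1 was 0.632% of the TIMP pool in PBS and 16.9% at 4 h, and Timp2 went from 20.2% to 7.77%. Timp3 held most of the pool throughout, with 78.4% in PBS, 84.6% at 15 min, 87.0% at 30 min, and 75.1% at 4 h. In the MMP pool, Mmp14 had 41.7% in PBS and 41.2% at 4 h. Mmp3 took 36.0% at 4 h and had been 0.108% in PBS. Mmp15 went from 37.1% to 6.29% and Mmp2 from 19.5% to 9.88%. MMP genes outside the group, Mmp28 among them, are not part of the MMP pool. The shares of both pools weigh transcripts, not protein or enzyme activity.

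**Figure D4:**
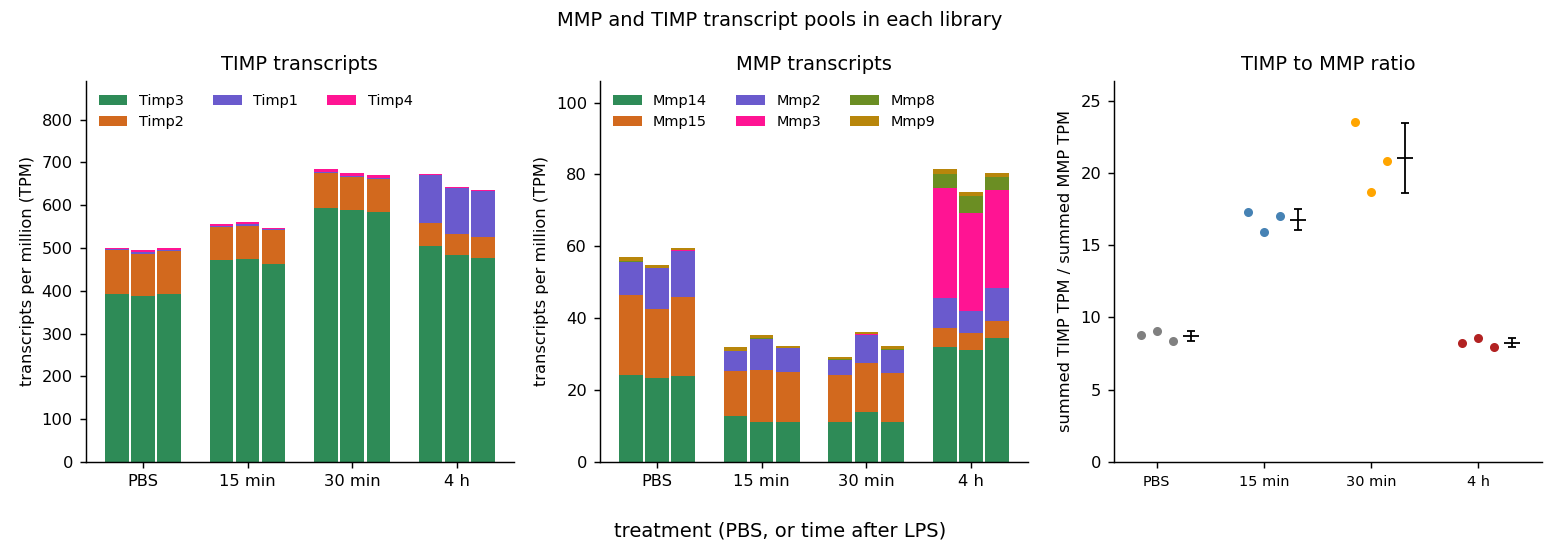
Stacked TPM (y axes, from 0) of the 4 TIMPs (left) and 6 MMPs (middle), 1 bar for each of the 3 libraries of a group, and the ratio of the summed levels (right; points are libraries, with mean ± SD). The MMP bars are shortest at 15 and 30 min, Mmp3 and Timp1 appear at 4 h, and the ratio goes from 8.73 to 21.0 and then 8.24 with these 6 MMPs in TPM.

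Mmp3 and Mmp8 belong to a run of 10 MMP genes on chromosome 9, at 7272514 to 7699585. Only 4 of these 10 passed the filter, and all 4 were called higher at 4 h. Besides Mmp3 and Mmp8 these were Mmp13, a collagenase (log2 fold change 8.10, SE 0.235, edgeR adjusted p = 1.2e-18), and Mmp12, the macrophage elastase (4.71, SE 0.174, edgeR adjusted p = 2.39e-16). Of these, Mmp3, Mmp8, and Mmp13 passed the filter through the 4 h group alone and had to differ, so this count is a description. In TPM at 4 h, Mmp3 (28.4) stood above Mmp13 (18.9), Mmp12 (14.5), and Mmp8 (4.12). The other 6 had few reads or none at 4 h: Mmp27 had 10 counts over the group, Mmp10 had 7, Mmp7 had 3, and Mmp1a, Mmp1b, and Mmp20 had 0. Mmp13 was the member of this run that was already called at 30 min (14, 9, and 24 counts against 9, 4, and 3 in PBS, log2 fold change 1.79, edgeR adjusted p = 0.035), a call lost with DESeq2, limma, library size alone, the length offset, and the replicate block (edgeR adjusted p = 0.0569). It was also lost without PBS replicate 2 or 3 (edgeR adjusted p = 0.182 and 0.164) and without LPS 30 min replicate 1 or 3 (0.0583 and 0.327).

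**Figure D5:**
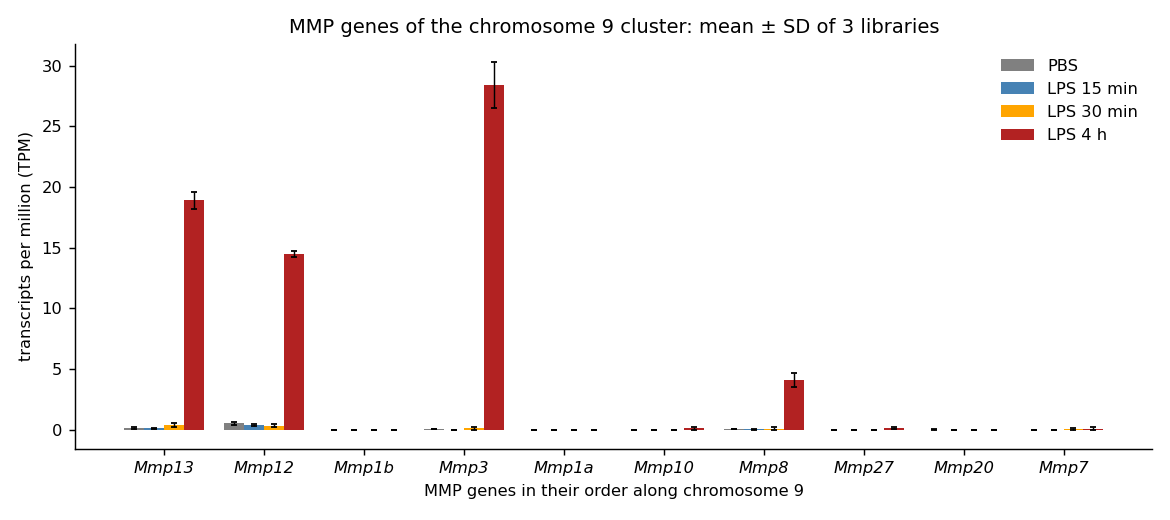
Mean TPM ± SD of 3 libraries (y axis, from 0) for the 10 MMP genes of the chromosome 9 run, in their order along the chromosome (x axis), in the 4 groups. Mmp13, Mmp12, Mmp3, and Mmp8 have bars at LPS 4 h, with Mmp3 the tallest at 28.4 TPM, and the other 6 stay near 0.

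Over all 17 MMP genes outside the group, 10 passed the filter, of which 3 were called higher and 2 lower at 4 h, against 19.0% and 13.8% of all genes. Mmp13 passed the filter through the 4 h group alone. Mmp19 rose (1.68, SE 0.154, edgeR adjusted p = 2.09e-07). Mmp28, known as epilysin, fell from 61.2, 58.9, and 58.1 CPM in PBS to 9.71, 6.73, and 8.74 CPM (-2.83, SE 0.0797, edgeR adjusted p = 6.8e-18), and Mmp11 fell by 2.18 on the log2 scale. Mmp16 (-0.02), Mmp17 (-0.62), Mmp23 (-0.59), and Mmp24 (0.12) did not pass the test. Mmp28 was already at 43.2 to 43.9 CPM at 15 min and 35.8 to 37.6 CPM at 30 min, values that were not called.

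Proteins that activate MMPs or bind them were among the called genes too. Of 11 listed activators and partners 8 were tested, with 5 called higher and 1 lower at 4 h, against 32.8% of all genes (19.0% higher and 13.8% lower). Lcn2, a lipocalin that forms a complex with Mmp9 protein, rose by a log2 fold change of 10.70 (SE 0.0793, edgeR adjusted p = 3.96e-30). The urokinase receptor Plaur (6.75), the plasminogen activators Plat (1.80) and Plau (1.65), and Furin (0.86), which cleaves the precursors of membrane-type MMPs, rose as well. Bsg, a membrane protein also known as an inducer of MMPs, fell by 1.80 on the log2 scale. The median over the list was 1.25.

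Of 10 genes listed as other protease inhibitors, all of them tested, 4 were called higher and 2 lower at 4 h, against the same 32.8% of all genes. Inhibition by their products was not measured. Serpinb2 passed the filter through the 4 h group alone and had to differ. The risers were Tfpi2 (5.95), Serpinb2 (5.87), Thbs1 (4.42), and A2m (3.72). Serpinb2 inhibits plasminogen activators, and A2m traps proteases of many kinds. Spock2 fell by 2.12 and Reck, a membrane-anchored MMP inhibitor, fell by 1.2 on the log2 scale, from 224 ± 4.26 to 97.5 ± 2.57 CPM. Of 7 ADAM proteases 5 were called, against 32.8% of all genes. Adam9 (2.54), Adam8 (1.18), and Adam17 (0.92), which sheds TNF and is inhibited by Timp3, rose. Adam12 fell by 1.89 and Adam10 by 0.77.

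Among 17 basement membrane and junction genes whose products MMPs are known to cut, 5 were called higher and 4 lower at 4 h, against 19.0% and 13.8% of all genes, and the median of the list was 0.07. The collagen IV chains Col4a1 (1.76) and Col4a2 (1.45), the laminin chain Lamc1 (0.90), fibronectin Fn1 (0.81), and Nid2 (0.80) rose. The tight junction genes Cldn5 and Ocln fell by 2.31 and 1.38 on the log2 scale, Lamb2 by 0.74, and Sparc by 0.63. The call for Sparc was lost with DESeq2 (adjusted p = 0.254), and without PBS replicate 1 (edgeR adjusted p = 0.087) or LPS 4 h replicate 1 or 2 (0.0695 and 0.131). With library size alone the calls for Nid2, Fn1, and Lamc1, as well as for Furin, Adam8, and Adam17, were lost, at log2 fold changes of 0.10 to 0.47. Nid2 and Fn1 were also lost with the length offset (edgeR adjusted p = 0.364 and 0.245) and with limma (adjusted p of at least 0.838 and 0.608), and Lamc1 with limma (adjusted p = 0.0729 to 0.134). The sum of the endothelial markers, which includes Cldn5, was 6448 to 6512 CPM at 4 h. Other marker sums moved as well, with the astrocyte sum at 717 to 739 CPM in PBS and 1373 to 1431 CPM at 4 h. The erythroid sum was 1480 to 1596 CPM in PBS and 4442 to 4649 CPM at 4 h. The sum of 3 monocyte markers was 38.5 to 47.5 CPM in PBS and 114 to 121 CPM at 4 h, and that of 4 perivascular macrophage markers 84.8 to 87.3 and 141 to 151 CPM, whereas that of 6 microglia markers was 146 to 150 and 91.5 to 97.5 CPM. The part of these cell types in the MMP and TIMP values was not tested.

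Likeness of time course was measured as the root mean square difference of the 3 log2 fold changes against PBS, over 13692 genes with a mean of at least 5 CPM in 1 group. For Mmp8 the closest gene was S100a9 (0.335), followed by Apol7c (0.336) and Slc10a6 (0.349). These lie closer together than the error of the early Mmp8 values, which rest on 3 and 11 counts: leaving out a library gave -2.29 to -0.88 at 15 min and -0.68 to 0.98 at 30 min. For Timp1 they were Tnip3 (0.242), Phf11a (0.243), and Chil1 (0.244). For Timp3 they were Slc24a4 (0.0403), mt-Rnr1 (0.0611), and Gm43579 (0.0751), and for Mmp14 Apobec1 (0.0912), Leo1 (0.0995), and Dhx58os (0.0996). For Mmp9 they were Gpr160 (0.0363), Gk (0.0381), and Apex1 (0.0399), and for Mmp15 Tmie (0.0509), Mpst (0.0516), and Acsf2 (0.0529). The distances for Mmp9 are smaller than the SE of its changes (0.289 to 0.304), and those for Mmp15 are below its SE too (0.0532 to 0.0603). Timp1 had an SE of 0.230 at 15 min and 0.212 at 30 min, near the size of its distances. The order of the genes named for Timp1, Mmp9, and Mmp15 is thus not settled. For Mmp3 the closest were Lipf (1.18), Gm20400 (1.68), and Saa3 (1.70). Its early values rest on 0 counts at 15 min (-3.59, SE 1.29) and 8 at 30 min (0.88, SE 0.715). With so few reads, these distances cannot tell a distinct time course from counting error. The measure is a description over 3 points that share the PBS libraries.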

How the data were processed

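The authors ran Salmon 1.2.1 on paired-end reads of SMART-Seq v4 and Nextera XT libraries, imported the estimates with tximport, and used DESeq2 (build GRCm38.p6). The deposited estimated counts are fragments assigned to each transcript, not normalized. The deposited TPM values correct for transcript length and sum to a constant in each library. The deposited gene table holds a normalized signal, counts divided by DESeq2 size factors. Groups came from the sample records, and columns of the gene table were matched by library number: in 12 of 12 the closest Salmon file had that number.

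Transcript estimates were summed to 54119 genes of GENCODE M21 (1096 of 140948 transcripts did not join, 0.482 to 0.850% of fragments) and rounded. The filter filterByExpr (minimum count 10, total 15) kept 19150 genes. All 12 libraries entered 1 fit in edgeR 4.0.16 (R 4.3.3, glmQLFit, then glmTreat at 1.5-fold, TMM factors, adjusted p threshold 0.05). The SE divides the log2 fold change by the root of the quasi-likelihood F statistic. CPM divide counts by TMM-scaled library sizes. The scripts were tested on simulated counts. Alternatives used DESeq2 1.42.0, limma 3.58.1 (pseudocounts 1 and 10, on the log2 scale), RLE factors, other filters and limits, a length offset, and leaving out each library. Replicate numbers are shared between groups, but over 18 pairs of same-numbered libraries the correlations of deviations were -0.158 to 0.0909, so they were not taken as pairs. Libraries of a group differed by more than counting noise (median chi-square 2.20 to 2.88 times its expectation), so none was a copy. Since each library is a pool, p-values measure the spread between pools.

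All members are named, with the 3 genes closest in time course to each member called in a comparison with PBS. Of the lists, all tested MMPs and up to 4 genes of each other list, by the largest absolute change among those called, were to be named. Other called genes of the lists were named after their values were seen. A listed protease inhibitor is not reported here. The members and lists were chosen with earlier results of these data known. The MMP genes of the chromosome 9 run, the synapsin genes, and the transcripts were singled out after their values were seen. Overlapping or antisense genes are uncertain, since the kit does not mark strand. Promoter windows are from RefSeq, matched by symbol for 8 of 10 members. The tables used Python 3.11.15, pandas 2.3.3, numpy 2.4.6, and scipy 1.17.1, and plots were drawn with matplotlib 3.10.9. Depth and counting intervals cover counting error only.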

Additional observations from a re-analysis of the deposited data

Results flagged for a closer look

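The effect of LPS differed between times for 9 values, by the edgeR test of the difference between 2 LPS groups. Between 15 and 30 min, Timp4 had a log2 difference of 1.02 (SE 0.110, edgeR adjusted p = 0.00249) and Mmp3 one of 4.47 (SE 1.19, edgeR adjusted p = 0.0377), the latter on 8 counts against 0. Between 30 min and 4 h the differences were 8.72 for Mmp3, 6.01 for Mmp8, 5.68 for Timp1, 2.06 for Mmp14, 1.65 for Mmp9, -1.08 for Timp4, and -0.78 for Mmp15. Of these, Mmp3 and Mmp8 passed the filter through the 4 h group alone and had to differ. The 3 comparisons with PBS share their control libraries. These differences set LPS groups against each other, but all 12 libraries entered the same fit. The PBS libraries thus took part in the filter and in the estimate of spread.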

How the results depend on the processing

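Of 1194 values of the members under alternatives, 1111 kept their direction and their side of the threshold, 34 lost the call, 23 gained it, and 26 changed sign. No value that was called changed sign. At 15 min against PBS 7 members were called without the fold limit and 0 where the log2 change also had to exceed 1.5 (the added limit), against 1. At 30 min these were 6 and 0, and library size alone gave 2, against 1. At 4 h the added limit gave 4, against 7. Of all 19150 genes tested, no fold limit called 7393 at 15 min and 7066 at 30 min, and the added limit 168 and 371. Library size alone called 881 of all genes at 30 min, and the added limit 2858 at 4 h. Between 15 and 30 min no fold limit gave 7, the added limit, the replicate block, the fit on the groups compared, and DESeq2 gave 1 each, and the length offset and limma (pseudocount 1 or 10, and 1 with no filter) gave 0, against 2. Leaving out a library gave 1 to 2 there. Over all genes that comparison gave 7153 calls with no fold limit, 252 with the added limit, and 876 with the block, against 891. The length offset gave 698, DESeq2 620, limma 443, 413, and 406, and the fit on the groups compared 948. Mmp3 had passed the filter through the 4 h group alone, so the fit on the groups compared left it untested. The block changed no other member's call.

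Values that changed sign, none of them called, were as follows. Against PBS at 15 min, Timp4 was 0.27 with the length offset and 0.28, 0.27, and 0.28 with limma, and Mmp9 was 0.080 without LPS 15 min replicate 3 (range over left-out libraries -0.41 to 0.080). At 30 min, Mmp3 was -0.42 without LPS 30 min replicate 2 (to 1.27 without others) and Mmp8 -0.68 without replicate 1 (to 0.98). At 4 h, Mmp2 was -0.68 with library size alone, -0.029 with no filter, and -0.014 with the groups compared alone, and its range over left-out libraries was -0.028 to 0.11, with a negative value without LPS 4 h replicates 1 and 3. Between 15 and 30 min, Mmp9 was -0.071 with library size alone and -0.22 to 0.26 over left-out libraries (negative without LPS 15 min replicate 3 or LPS 30 min replicate 2). Between 30 min and 4 h with library size alone, Mmp2 was -0.039, Timp2 -0.53, and Timp3 -0.23. Timp2 was also -0.040 with no filter, -0.031 with the length offset, -0.019 with each limma fit, and -0.024 to 0.019 over left-out libraries. The causes were not tested.

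With estimated counts in place of TPM, the TIMP to MMP ratios were 11.9, 22.3, 27.7, and 14.4 for PBS, 15 min, 30 min, and 4 h. Timp3 was then 82.7% of its pool in PBS and 89.6% at 4 h, Timp1 2.74% at 4 h, Mmp14 30.1% in PBS and 45.1% at 4 h, Mmp15 55.5% in PBS, and Mmp3 25.6% at 4 h. These values weigh long transcripts more. With all MMP genes the ratios were 4.17, 6.18, 9.62, and 5.15. Leaving out a library gave ratios of 8.57 to 8.91, 16.5 to 17.2, 19.8 to 22.2, and 8.09 to 8.40. Over all genes, 15 min, 30 min, and 4 h against PBS gave 7393, 7066, and 13124 calls with no fold limit, 168, 371, and 2858 with the added limit, and 406, 531, and 5183 with limma at pseudocount 1, against 800, 877, and 6273. For lists at 4 h, library size alone and no fold limit each called 8 other MMPs (5 before), no fold limit called 10 inhibitors (6 before) and 16 substrates (9 before), and the added limit called 2 ADAMs (5 before) and 2 substrates. Of all 19150 genes, library size alone called 10462 at 4 h, no fold limit 13124, and the added limit 2858. Mmp3 and Mmp8 before 4 h had at most 8 counts a library, which limits what can be seen of them at 15 and 30 min.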
